A study of Mus musculus with 6 samples.

Results

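Lin28a, Lin28b, Trim71, Hmga1, Hmga2, Igf2bp1, Igf2bp2 and Igf2bp3 are genes of the early embryo. Adult tissues switch many of them off and many tumours switch them on again, and for this reason the group is called oncofetal. The 8 genes were chosen by gene name, with their levels in these libraries already known, from the 20460 genes of the deposited expression table, and each had 1 row in it. All 8 had a mean of at least 1 FPKM (fragments per kilobase of transcript per 1000000 mapped reads) over the libraries, as had 11227 genes in all.

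The values come from RNA sequencing of J1 cells, a male mouse embryonic stem cell line of strain 129S4/SvJae, in a study of how retinoic acid (RA) acts when CARM1, an arginine methyltransferase, is depleted. There were 3 lines, namely wild-type cells, cells that carry a scramble control short hairpin RNA (shRNA), and cells with an shRNA against Carm1. Each was sampled after 48 h with the ethanol vehicle or with 1 µM RA, which makes 6 libraries with 1 library per line and treatment. All cells grew on gelatin in medium with LIF, a cytokine that holds embryonic stem cells undifferentiated, so RA acted in its presence. Each shRNA is represented by 1 line, the sources used here do not say whether a line is 1 clone, and the scramble line was the shRNA control. Separate cultures are not described, so spreads and p-values cover only these libraries.

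Carm1 itself was at 37.0 FPKM in wild-type, 36.1 FPKM in scramble and 8.49 FPKM in Carm1 shRNA cells with vehicle. With RA it was at 29.5, 29.9 and 6.73 FPKM in the same order. The sum over 8 stem cell genes lay between 3610 and 3806 FPKM with vehicle and between 1569 and 2388 FPKM with RA, and 7 of the 8 fell while Nanog did not pass the limma test of the RA response. A list of 9 extraembryonic endoderm genes summed to between 31.7 and 35.1 FPKM with vehicle and to between 119 and 138 FPKM with RA, and all 6 of its tested genes rose. A neural list of 8 genes summed to between 121 and 142 FPKM with vehicle and between 98.1 and 135 FPKM with RA. Of its 5 tested genes 3 rose (Sox1, Pax6 and Nes) and 1 fell (Tubb3). Tubb3 made up most of the sum in every library, so the sum mainly follows that gene. In wild-type, scramble and Carm1 shRNA cells Tubb3 was at 122, 108 and 128 FPKM with vehicle and at 65.9, 72.0 and 117 FPKM with RA. Fibroblast genes summed to at most 2.10 FPKM with vehicle and to between 3.65 and 7.12 FPKM with RA, Postn was at 0 in every library, and of the 3 tested genes 2 rose and 1 fell. Beside these counts, 42.9% of all tested genes rose and 20.7% fell. Where the level of a gene changed in these bulk samples, fewer cells of a type and less RNA per cell cannot be told apart, and the part of these marker shifts in the results was not tested.

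LIN28A and LIN28B are RNA-binding proteins that hold back the microRNA family let-7. They bind the loop of the let-7 precursor, where LIN28A recognises the letters GGAG. LIN28A recruits enzymes that add uridines, so that the precursor is destroyed. Mature let-7 in turn binds the messenger RNAs of Lin28a, Lin28b, Trim71, Hmga2 and the Igf2bp genes, so that each side of the circuit keeps the other low. TRIM71, the mouse counterpart of worm LIN-41, is a ubiquitin ligase and RNA-binding repressor. HMGA1 and HMGA2 are small chromatin proteins that bind the minor groove of AT-rich DNA. The 3 IGF2BP proteins bind messenger RNAs and affect their stability, transport and translation.

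The sequences below show the letters through which let-7 could pair with the 8 genes. In the RefSeq microRNA table for GRCm38.p6, 11 mature mouse microRNA names carried the same 7-base seed, which is bases 2 to 8 and is printed in capitals. The 5 shown are examples that differ outside the seed.
mmu-let-7a-5p: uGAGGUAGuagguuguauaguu
mmu-let-7d-5p: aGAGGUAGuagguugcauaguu
mmu-let-7e-5p: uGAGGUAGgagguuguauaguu
mmu-let-7g-5p: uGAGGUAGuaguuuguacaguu
mmu-miR-98-5p: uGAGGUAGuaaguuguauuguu

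The letters GGAG were found in 8 of the 10 let-7 hairpins of that table, on the strand of the hairpin. Mirlet7g, which holds them once, and Mirlet7b, which does not hold them, are shown with GGAG in capitals. A match is a description of the letters and was not measured as binding.
Mirlet7g: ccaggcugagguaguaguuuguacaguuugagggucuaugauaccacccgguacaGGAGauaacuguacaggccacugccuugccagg
Mirlet7b: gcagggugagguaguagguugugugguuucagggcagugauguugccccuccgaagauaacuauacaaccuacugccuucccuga

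The letters CTACCTC, the exact complement of the seed, were searched on the sense strand in 1 annotated 3′ untranslated region per gene (GENCODE, GRCm38). This was the longest region among transcripts with a RefSeq match. All 8 genes held at least 1 match and 5 held 2 or more. Among the 19271 genes with such a region, 8.43% held at least 1 match and 1.02% held at least 2. The 8 regions were between 1183 and 6337 bases long and the median over all genes was 854 bases. Most of the 8 genes, Hmga1 aside, are textbook let-7 targets, so the difference is a description. The matches numbered 4 in Lin28b, Trim71, Hmga2 and Igf2bp1, 2 in Lin28a, and 1 in Hmga1, Igf2bp2 and Igf2bp3. One 24-base site per gene is printed with the match in capitals, and for Trim71 the last 2 are printed because they start close together, at bases 3591 and 3617 of the region.
Lin28a: tgcacagcctgttgaaCTACCTCa
Lin28b: cacccgggcgggaagtCTACCTCa
Trim71 site 3: gtttagtatggattttCTACCTCa
Trim71 site 4: tttggcaaaaagttgtCTACCTCa
Hmga1: ctcctctgttcacaaaCTACCTCt
Hmga2: cgccgacattcaatttCTACCTCa
Igf2bp1: tgctgtgcgaagtaaaCTACCTCa
Igf2bp2: aacacacaaataaaagCTACCTCa
Igf2bp3: gtgcatttttactcaaCTACCTCa

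On GRCm38 the Lin28a site lies at chr4:134005189-134005212 and the Lin28b site at chr10:45381022-45381045. The Trim71 sites lie at chr9:114509047-114509070 and chr9:114509021-114509044. The Hmga1 site lies at chr17:27563276-27563299, on the plus strand, and all others are on the minus strand. The Hmga2 site is at chr10:120364224-120364247, starting at base 58 of the untranslated region, and the Igf2bp1 site at chr11:95961778-95961801. The Igf2bp2 and Igf2bp3 sites are at chr16:22059473-22059496 and chr6:49086787-49086810. In 7 of the 8 genes at least 1 match is followed by an A, the letter that faces the first base of the microRNA, and Hmga1 is the exception. Mature let-7 was not measured in these libraries.

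The RA response was estimated for every gene over the 3 lines with limma on log2(FPKM + 1), with the line as a block and Benjamini-Hochberg adjustment over the 11227 genes tested at 0.05. RA raised 42.9% of all tested genes (4816) and lowered 20.7% (2325), and without the scramble line the lower count was 1390, without the Carm1 shRNA line 1505. The split between directions depended on scaling, with 3662 higher and 3631 lower under median-of-ratios scaling and 3031 higher and 3827 lower under quantile normalization. Of the 8 oncofetal genes, Hmga2, Igf2bp1 and Igf2bp3 passed as higher and Lin28a, Trim71 and Hmga1 as lower, while Lin28b and Igf2bp2 did not pass. The fit's estimates for these genes are given with standard errors (SE) and without p-values, because the genes were chosen with these values known. Their median log2 change was -0.19, and that of all tested genes was 0.14. With median-of-ratios scaling, which brings the median of all genes to 0.0015, Igf2bp1 and Igf2bp3 no longer passed, Lin28b and Igf2bp2 passed as lower, and all 8 kept their sign.

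**Figure D1:**
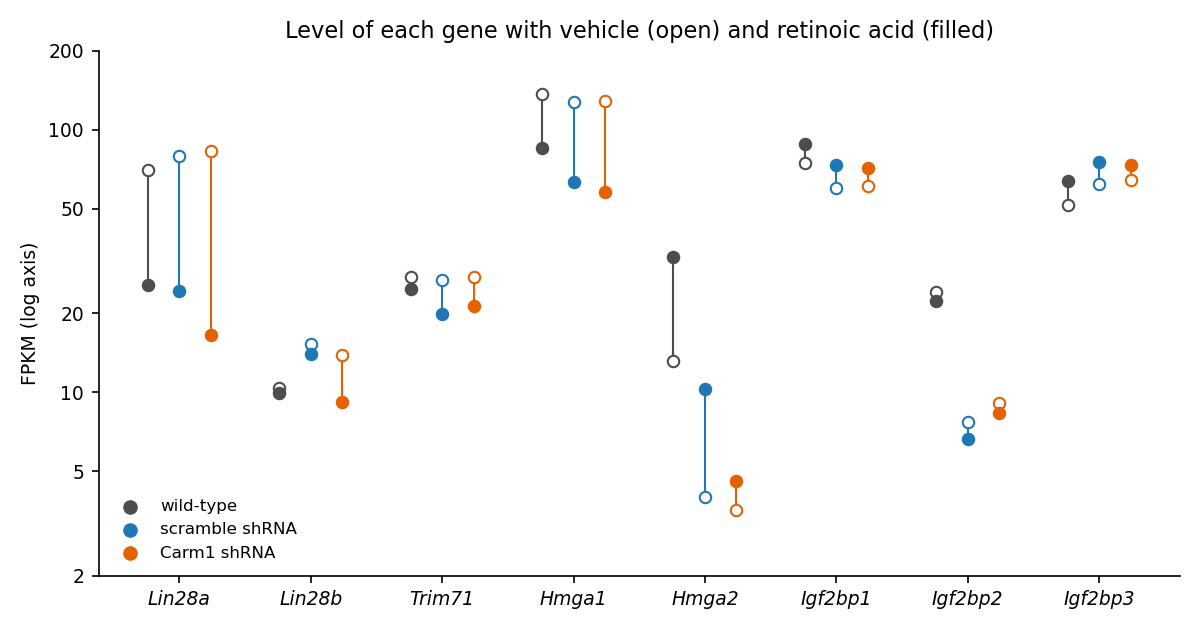
FPKM (log axis) of the 8 genes in each of the 6 libraries, with open circles for vehicle, filled circles for RA, a line joining the pair of 1 line, and colour for the line. Lin28a and Hmga1 are lower with RA in all 3 lines, Hmga2 is higher with RA in all 3, and the wild-type line stands above both shRNA lines for Hmga2 and Igf2bp2.

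Lin28a, the form of LIN28 known from undifferentiated stem cells, changed most. Its gene spans chromosome 4 from 133559245 to 133574731 on mm9, the build of the deposited table. Its level was 70.5 FPKM in wild-type, 79.7 FPKM in scramble and 82.9 FPKM in Carm1 shRNA cells with vehicle. With RA it was 25.7 FPKM in wild-type, 24.4 FPKM in scramble and 16.5 FPKM in Carm1 shRNA cells. Every RA library lay below every vehicle library. The fitted log2 change was -1.78 ± 0.17 (SE, 3 lines), and 36.5%, 30.6% and 19.9% of the vehicle level remained in wild-type, scramble and Carm1 shRNA cells. Among the 8, Lin28a alone was at least 2-fold lower with RA in every line on the FPKM + 1 scale, as were 0.802% of all tested genes (90).

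Lin28b, the paralog first described from human liver cancer, was several times lower than Lin28a with vehicle, and its change with RA did not pass the test. It spans chromosome 10 from 45096425 to 45190007 on mm9. It was at 10.4 FPKM in wild-type, 15.2 FPKM in scramble and 13.8 FPKM in Carm1 shRNA cells with vehicle. With RA it was at 9.92 FPKM in wild-type, 14.0 FPKM in scramble and 9.19 FPKM in Carm1 shRNA cells. The treatments overlapped, since the scramble line with RA lay above the wild-type and Carm1 shRNA lines with vehicle. The fitted log2 change of -0.24 ± 0.11 (SE, 3 lines) did not pass the threshold. It was -0.09 without the Carm1 shRNA line, and it passed at -0.39 with median-of-ratios scaling and at -0.47 with quantile normalization.

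Per transcript length, Lin28a and Lin28b together summed to 80.9, 95.0 and 96.8 FPKM with vehicle in wild-type, scramble and Carm1 shRNA cells. With RA the sums were 35.6, 38.4 and 25.7 FPKM. Lin28b held 12.9%, 16.0% and 14.3% of this sum with vehicle, and 27.8%, 36.6% and 35.7% with RA. Its share was thus higher with RA in all 3 lines, while its own level was not higher in any of them.

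Trim71, which keeps stem cells dividing and represses messenger RNAs that it binds, lay close together in all libraries. It spans chromosome 9 from 114420391 to 114473487 on mm9. The vehicle libraries gave 27.5 FPKM in wild-type, 26.8 FPKM in scramble and 27.5 FPKM in Carm1 shRNA cells. The RA libraries gave 24.8, 19.9 and 21.4 FPKM in the same order. All RA values lay below all vehicle values, with 90.2% of the vehicle level left in wild-type, 74.1% in scramble and 77.8% in Carm1 shRNA cells. The fitted log2 change of -0.30 ± 0.08 (SE, 3 lines) passed. It no longer passed without the scramble line (-0.25), without the Carm1 shRNA line (-0.28) or when genes of low level were kept in the fit (-0.30).

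Hmga1, the more widely expressed of the pair of HMGA genes, had the highest vehicle level of the 8. It spans chromosome 17 from 27693519 to 27700617 on mm9. Its level with vehicle was 137 FPKM in wild-type, 128 FPKM in scramble and 129 FPKM in Carm1 shRNA cells. With RA it was 85.1 FPKM in wild-type, 63.4 FPKM in scramble and 57.9 FPKM in Carm1 shRNA cells. The treatments did not overlap, and the fitted log2 change was -0.94 ± 0.10 (SE, 3 lines). Hmga1 passed as lower under all 10 alternative settings, as did Lin28a.

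How the authors counted reads that match several places in the genome is not stated, so the absolute level of Hmga1, and with it its share of the HMGA sum, is uncertain.

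Hmga2, which is known for its part in growth and body size, went the other way. It spans chromosome 10 from 119798331 to 119913991 on mm9. With vehicle its level was 13.2 FPKM in wild-type, 4.002 FPKM in scramble and 3.57 FPKM in Carm1 shRNA cells. With RA the level was 32.7 FPKM in wild-type, 10.3 FPKM in scramble and 4.61 FPKM in Carm1 shRNA cells. The treatments overlapped across lines, because the wild-type line with vehicle lay above both shRNA lines with RA. Within a line RA was always higher, by 2.47-fold in the wild-type, 2.57-fold in the scramble and 1.29-fold in the Carm1 shRNA line. In the fit the log2 change was 0.91 ± 0.20 (SE, 3 lines). It no longer passed without the scramble line (0.77), with genes of low level kept (0.91), with quantile normalization (0.58) or without the line block (0.91).

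The 2 HMGA genes thus changed in opposite directions. Hmga2 made up 8.81%, 3.04% and 2.70% of the summed FPKM of Hmga1 and Hmga2 with vehicle in wild-type, scramble and Carm1 shRNA cells. With RA it made up 27.8%, 14.0% and 7.37%, higher in each line.

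**Figure D2:**
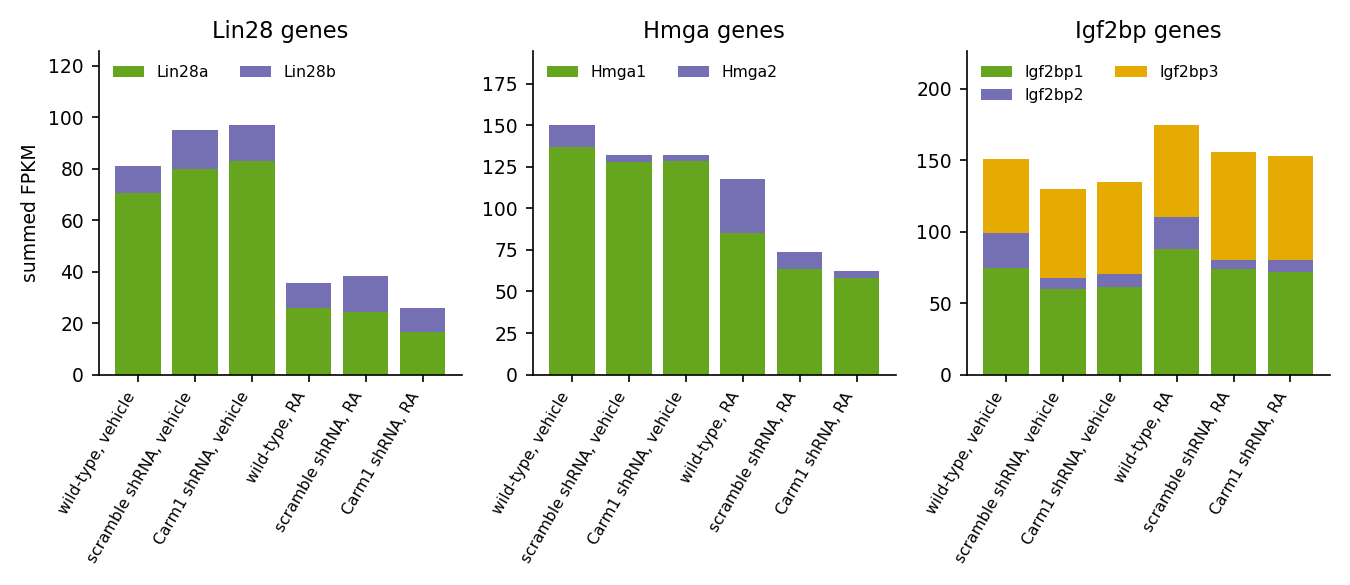
Stacked FPKM of the Lin28, Hmga and Igf2bp genes in each of the 6 libraries (bars start at 0; 1 library per bar). The Lin28 sum is between 80.9 and 96.8 FPKM with vehicle and between 25.7 and 38.4 FPKM with RA, while the Igf2bp sum is between 130 and 151 FPKM with vehicle and between 153 and 174 FPKM with RA.

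Igf2bp1, also called ZBP1 or IMP1 and known for carrying beta-actin messenger RNA, was among the highest of the 8 with either treatment. It spans chromosome 11 from 95818478 to 95867258 on mm9. It was at 74.8 FPKM in wild-type, 60.1 FPKM in scramble and 61.1 FPKM in Carm1 shRNA cells with vehicle. With RA it was at 88.2 FPKM in wild-type, 73.6 FPKM in scramble and 71.7 FPKM in Carm1 shRNA cells. RA was higher within each line, by between 17.4% and 22.5%, although the ranges of the treatments overlapped. Its fitted change was 0.25 ± 0.06 on the log2 scale (SE, 3 lines), and 0.09 with median-of-ratios scaling, where it no longer passed. It did not pass without the scramble line (0.23), without the Carm1 shRNA line (0.26) or without the line block (0.25) either.

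Igf2bp3, the paralog most often reported from human tumours, had nearly the same fitted response as Igf2bp1. The lines differed in order, since the wild-type line was the highest for Igf2bp1 and the lowest for Igf2bp3 with either treatment. It spans chromosome 6 from 49035217 to 49164953 on mm9. The values with vehicle were 51.9 FPKM in wild-type, 62.1 FPKM in scramble and 64.2 FPKM in Carm1 shRNA cells. With RA they were 63.8, 75.5 and 73.1 FPKM in the same order. The only overlap was between the wild-type line with RA and the Carm1 shRNA line with vehicle. The fitted log2 change was 0.25 ± 0.06 (SE, 3 lines), which no longer passed with median-of-ratios scaling (0.09), without the line block (0.25) or without any 1 of the wild-type (0.23), scramble (0.24) and Carm1 shRNA line (0.29).

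Igf2bp2, the paralog that stays expressed in adult tissues and is linked to metabolism, was the lowest of the 3 IGF2BP genes. It spans chromosome 16 from 22059082 to 22163372 on mm9. With vehicle its level was 24.1 FPKM in wild-type, 7.69 FPKM in scramble and 9.09 FPKM in Carm1 shRNA cells. With RA its level was 22.3 FPKM in wild-type, 6.65 FPKM in scramble and 8.31 FPKM in Carm1 shRNA cells. The values sorted by line and not by treatment. The estimate of -0.14 ± 0.06 on the log2 scale (SE, 3 lines) did not pass, and it passed at -0.28 with median-of-ratios scaling and at -0.40 with quantile normalization. Igf2bp2 held 16.0%, 5.92% and 6.76% of the summed IGF2BP level with vehicle and 12.8%, 4.27% and 5.42% with RA.

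**Figure D3:**
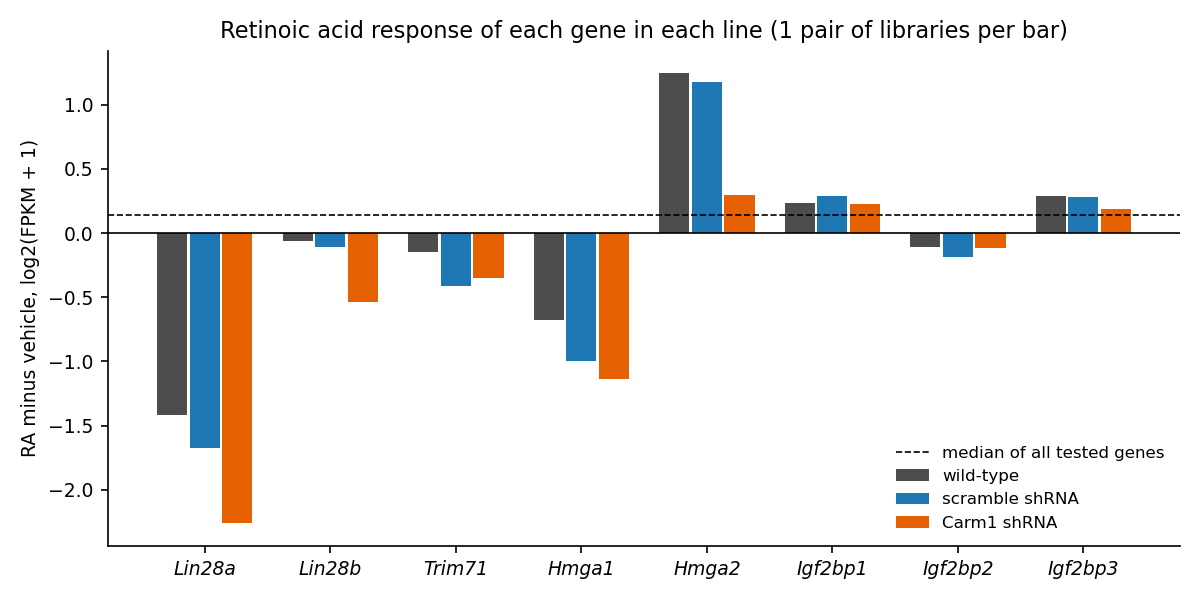
RA response of the 8 genes in each line, as the difference of log2(FPKM + 1) between the RA and the vehicle library of that line; the dashed line is the median change of all tested genes, 0.14. All 8 genes have the same sign in the 3 lines, as have at least 6848 of the 11227 tested genes, whose treatments do not overlap. The bar of the Carm1 shRNA line is the lowest of the 3 for every gene except Trim71 and Igf2bp2, from -2.26 for Lin28a to 0.30 for Hmga2. For Igf2bp1 the wild-type and Carm1 shRNA bars are both at 0.23. The median of all tested genes was also lowest in the Carm1 shRNA line, 0.11 beside 0.13 in wild-type and 0.19 in scramble cells. The share of all tested genes with this order was not counted.

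All 8 genes had the same sign in the 3 lines, 3 higher and 5 lower with RA, and the 3 whose treatments did not overlap were Lin28a, Trim71 and Hmga1. Relative to the median response of its own line, Igf2bp1 lay only 0.11, 0.10 and 0.12 higher on the log2 scale in wild-type, scramble and Carm1 shRNA cells. For Igf2bp3 these differences were 0.17, 0.09 and 0.07. Treatments did not overlap for 6848 of the 11227 tested genes, so at least that many also had the same sign in the 3 lines. The full share of tested genes with the same sign was not counted.

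Since FPKM is per transcript length, the 8 genes can be set in order of level. With vehicle the order of the means over the 3 lines was Hmga1 (131 ± 4.88 FPKM, SD, n = 3), Lin28a (77.7 ± 6.47), Igf2bp1 (65.3 ± 8.22), Igf2bp3 (59.4 ± 6.59), Trim71 (27.3 ± 0.39), Igf2bp2 (13.6 ± 9.11), Lin28b (13.2 ± 2.47) and Hmga2 (6.92 ± 5.44). The ranges of neighbours overlapped between Lin28a and Igf2bp1, Igf2bp1 and Igf2bp3, Igf2bp2 and Lin28b, and Lin28b and Hmga2, so those orders are not firm. Hmga1 stood above 94.1% of the tested genes and Hmga2 above 36.7%.

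With RA the order became Igf2bp1 (77.8 ± 9.01 FPKM, SD, n = 3), Igf2bp3 (70.8 ± 6.21), Hmga1 (68.8 ± 14.3), Lin28a (22.2 ± 4.97), Trim71 (22.0 ± 2.53), Hmga2 (15.9 ± 14.8), Igf2bp2 (12.4 ± 8.59) and Lin28b (11.1 ± 2.62). Among neighbours only Hmga1 and Lin28a did not overlap. Lin28a moved from above 89.8% of the tested genes with vehicle to above 64.8% with RA, while Hmga2 moved from above 36.7% to above 54.1%. Igf2bp1 stood above 87.8% with vehicle and 90.2% with RA, and Igf2bp3 above 86.6% and 89.0%.

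The Carm1 shRNA line was then set against its controls, the question that the study's design poses. Over both treatments, limma's contrast between the Carm1 shRNA and the scramble line passed the threshold for 0.0178% of tested genes, which are Carm1 and Mt2 (the latter named after its values were seen), and 1188 genes had an unadjusted p under 0.05. None of the 8 passed. The contrast was -0.24 ± 0.20 for Lin28a, -0.35 ± 0.14 for Lin28b, -0.57 ± 0.24 for Hmga2 and 0.25 ± 0.08 for Igf2bp2 on the log2 scale (SE, 2 libraries a line). For Trim71, Hmga1, Igf2bp1 and Igf2bp3 it was 0.07, -0.06, -0.01 and 0.00.

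Split by treatment, the difference for 3 of the genes lay on the RA side. With vehicle the Carm1 shRNA line held 1.04 times the scramble level of Lin28a, 0.91 times that of Lin28b and 0.89 times that of Hmga2. With RA it held 0.68, 0.65 and 0.45 times the scramble level in the same order. For Lin28b the wild-type line was itself low, with 10.4 FPKM under vehicle and 9.92 FPKM under RA, close to the 9.19 FPKM of the Carm1 shRNA line with RA. There is 1 library per line and treatment, so these differences have no test.

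By a rule of size, at least 2-fold on the FPKM + 1 scale below both control lines, Hmga2 was the only 1 of the 8 to pass in the Carm1 shRNA line with RA, as did 0.143% of tested genes (16). With vehicle 0.0802% passed (9) and none of the 8 did. Its ratio was at the edge, since the scramble line was 2.01 times and the wild-type line 6.01 times the Carm1 shRNA line, and with median-of-ratios scaling the first ratio was 1.95 and the gene no longer passed. The same rule in either direction marked 97 genes for the wild-type line and 8 for the scramble line with RA, beside 35 for the Carm1 shRNA line.

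The response itself can be compared between lines in the same way. In the Carm1 shRNA line the RA response of Lin28a and of Hmga2 was at least 1.5-fold below the responses of both control lines, as for 0.623% of tested genes (70), by a rule set after the values were seen. For Lin28a this is a deeper fall, a log2 response of -2.26 beside -1.42 in the wild-type and -1.67 in the scramble line. For Hmga2 it is a smaller rise, a log2 response of 0.30 beside 1.25 and 1.17. Lin28a met the rule only at the edge. Relative to the median response of each line its values were -2.37, -1.55 and -1.86 in Carm1 shRNA, wild-type and scramble cells. On that scale Lin28a was less than 1.5-fold below the scramble line. By the same rule 281 genes had a response that far below the other lines in the wild-type line and 18 in the scramble line, beside 70 in the Carm1 shRNA line. The genes with a response that far above the other lines numbered 64, 77 and 62 in wild-type, scramble and Carm1 shRNA cells.

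The wild-type line stood apart for Hmga2 and Igf2bp2. It was at least 2-fold higher than both shRNA lines with vehicle for 0.543% of tested genes (61) and with RA for 0.481% (54), and these 2 genes were in both sets. For Hmga2 the wild-type line had 3.30 times the scramble and 3.70 times the Carm1 shRNA level with vehicle, and 3.17 and 7.09 times with RA. For Igf2bp2 it had 3.14 and 2.65 times these levels with vehicle, and 3.35 and 2.68 times with RA. The 2 shRNA lines were within 1.25-fold of each other for Igf2bp2 with either treatment.

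Other genes separated the wild-type from the shRNA lines in the same libraries. Mest, an imprinted gene of the oncofetal list, was at 74.7 FPKM in the wild-type line and at 1.09 and 1.31 FPKM in the scramble and Carm1 shRNA lines with vehicle. With RA it was at 207 FPKM in the wild-type line and at 1.82 and 1.91 FPKM in the shRNA lines. Ddx3y, a gene of the Y chromosome, was at 5.55 and 5.02 FPKM in the 2 wild-type libraries and at most 0.017 FPKM in the shRNA libraries. Igf2, the messenger RNA from which the IGF2BP family takes its name, reached 7.31 FPKM in the wild-type line with RA and at most 0.75 FPKM in any other library. The part of these line differences in the levels of Hmga2 and Igf2bp2 was not tested.

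The genes whose profile was most like each of the 8 were ranked by Pearson's r of log2(FPKM + 1) over the 6 libraries, among about 2460 genes that ranged over at least 1 log2 unit. The libraries share lines and treatments, so r is a description. Lin28a was closest to Tor3a (r = 0.992) and also close to Rhebl1 (0.989). Hmga1 was closest to Mycn (0.999), Rdm1 (0.996) and Fbxo22 (0.996). Trim71 was closest to Rbpj (0.991), Mylpf (0.991) and Rif1 (0.990), and Lin28b, with lower values, to Phlda3 (0.893), Pou3f1 (0.876) and Ddah1 (0.826).

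Hmga2 was closest to Tnfsf13 (r = 0.983), Necab3 (0.982) and Dnttip1 (0.977), which were likewise highest in the wild-type line with RA. Igf2bp2 was closest to Uba3 (0.997), Rpl39l (0.986) and Ddx3y (0.985), all higher in the wild-type line than in either shRNA line. Igf2bp1 was closest to H1fx (0.991), Rom1 (0.990) and Crxos1 (0.989). Igf2bp3 was closest to Trerf1 (0.999), Plcl2 (0.997) and Tor2a (0.995).

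The enzymes around the let-7 precursor were measured as well. Of 21 listed genes of let-7 processing and action, 20 were tested, 11 rose with RA and 5 fell, with a median log2 change of 0.21 beside 0.14 for all genes. Among all tested genes 42.9% rose and 20.7% fell, so the counts of this list lie near the background. Zcchc11 (TUT4), the uridine-adding enzyme that LIN28A recruits, rose by 0.85 ± 0.08 on the log2 scale (limma adjusted p = 0.0012), from between 14.4 and 16.8 FPKM to between 26.8 and 32.0 FPKM. Zcchc6 (TUT7), its paralog, rose by 0.38 ± 0.07 and Dis3l2, the exonuclease that degrades the uridylated precursor, by 0.53 ± 0.08. Msi1, an RNA-binding protein reported to act with LIN28A in the nucleus, rose by 1.12 ± 0.16 and Prkra, a partner of Dicer, by 0.83 ± 0.10.

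Of the early steps of microRNA production, 2 genes fell. Drosha, which cuts the primary transcript, fell by 0.31 ± 0.06 on the log2 scale and Xpo5, which exports the precursor, fell by 0.31 ± 0.06, with limma adjusted p of 0.0090 and 0.0096. Dicer1, which cuts the precursor, rose by 0.19 ± 0.06, and Dgcr8 did not pass (-0.08 ± 0.06). Of the Argonaute genes Ago1 rose by 0.47 ± 0.08, Ago3 rose by 0.23 ± 0.07 and Ago2 fell by 0.25 ± 0.08. Of the silencing partners of Argonaute, Tnrc6c fell by 0.48 ± 0.08, whereas Tnrc6a rose by 0.24 ± 0.07 and Tnrc6b by 0.47 ± 0.08. Hnrnpa1, an RNA-binding protein that also binds let-7 precursors, fell by 0.42 ± 0.10. The rises of Dicer1, Ago3 and Tnrc6a were smaller than the 0.25 of Igf2bp1 and Igf2bp3, which no longer passed with median-of-ratios scaling. Calls for Dicer1, Ago3 and Tnrc6a under that scaling are not given here, so these rises may depend on it.

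**Figure D4:**
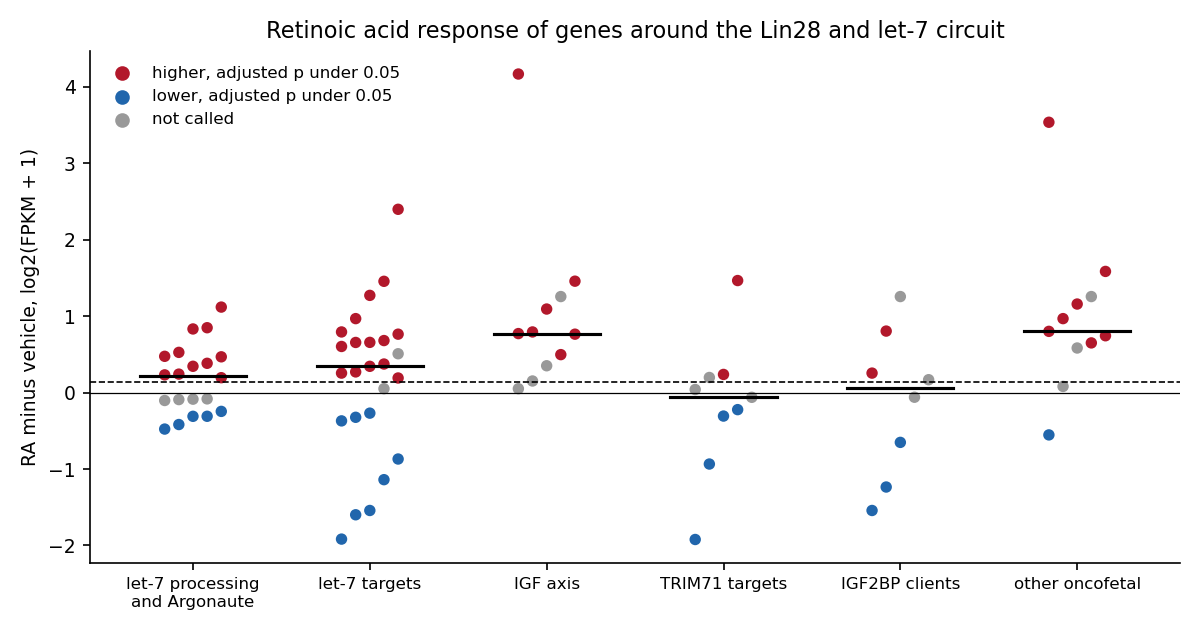
RA response, as the limma estimate on log2(FPKM + 1), of every tested gene of 6 lists (1 point per gene; some genes are in several lists), coloured by call, with the list median as a bar and the median of all tested genes, 0.14, as a dashed line. The let-7 targets spread from -1.92 (Mycn) to 2.40 (Prtg), and the IGF axis has 7 genes called higher and 0 called lower. Of all tested genes 42.9% were called higher and 20.7% lower.

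Other let-7 targets moved in both directions. Of 26 listed, 25 were tested, 15 rose and 8 fell, and their median was 0.34, where 42.9% of all tested genes rose, 20.7% fell and the median was 0.14. Those that fell were Myc, Mycn, Nras, Ccnd1, Cdk6, Cdc25a, Cdc34 and Rrm2, of which most act in growth or the cell cycle. Mycn went from 32.3, 25.1 and 28.8 FPKM with vehicle to 11.4, 5.88 and 4.64 FPKM with RA in wild-type, scramble and Carm1 shRNA cells, a log2 change of -1.92 ± 0.19 (limma adjusted p = 0.0012). Myc changed by -1.54 ± 0.07 (limma adjusted p = 0.00029), Cdk6 by -1.60 ± 0.17 and Ccnd1 by -1.14 ± 0.09. The DNA-binding gene Arid3a rose by 1.27 ± 0.12, and the surface proteins Igdcc3 and Prtg rose by 1.45 ± 0.25 and 2.40 ± 0.12.

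Over all genes, RA responses were also sorted by the seed match. The median log2 change was 0.13 for the 9483 tested genes without CTACCTC in the annotated region, 0.23 for the 1078 with at least 1 match and 0.34 for the 20 with at least 3. The untranslated regions of these sets differed in length, with medians of 984, 2257 and 4354 bases, so match and length cannot be told apart.

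In the insulin-like growth factor axis, 11 of the 15 genes found in the table were tested, 7 rose and none fell, with a median of 0.77. Of all tested genes 42.9% rose and 20.7% fell, with a median of 0.14. The 3 genes of the axis with the largest change among those that passed were binding proteins, which hold the growth factors outside the cell. Igfbp5 was at most 0.052 FPKM with vehicle. After RA it reached 7.11, 25.0 and 29.0 FPKM in wild-type, scramble and Carm1 shRNA cells, a log2 change of 4.17 ± 0.39 (limma adjusted p = 0.0011). Igfbp7 rose by 1.46 ± 0.29 and Igfbp2 by 1.09 ± 0.12. The receptor genes Insr (0.79 ± 0.10) and Igf2r (0.50 ± 0.08) rose, whereas Igf1r did not pass (0.05 ± 0.12) and neither did Igf2 (1.26 ± 0.44, limma adjusted p = 0.052).

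Of 9 messenger RNAs described as TRIM71 targets, 2 rose and 4 fell (median -0.06), beside 42.9% and 20.7% of all tested genes. Egr1 fell by 1.92 ± 0.17 on the log2 scale and Inhbb by 0.93 ± 0.15, Cdkn1a, a cell cycle inhibitor, fell by 0.22 ± 0.07, and Mbnl2, a splicing factor, rose by 1.46 ± 0.13. Of 8 tested messenger RNAs described as bound by IGF2BP proteins, mostly in human cells, 2 rose and 3 fell (median 0.05), beside the same shares of all genes. Btrc rose by 0.80 ± 0.10, Gli1 fell by 1.24 ± 0.16 and Mapk4 by 0.65 ± 0.07, besides Myc above, and Actb did not pass (-0.06 ± 0.06).

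Among 11 other tested oncofetal genes 7 rose and 1 fell, with a median of 0.80, where 42.9% of all tested genes rose and 20.7% fell. Dlk1 went from at most 0.69 FPKM with vehicle to 7.82, 28.0 and 23.9 FPKM with RA in wild-type, scramble and Carm1 shRNA cells, a log2 change of 3.54 ± 0.35 (limma adjusted p = 0.0012). Cdkn1c rose by 1.58 ± 0.26 and Plagl1 by 1.16 ± 0.07. Sall4, a stem cell factor that is also an oncofetal gene, fell by 0.55 ± 0.08. Igf2, Mest and others of this list are imprinted, and Igf2, Nr6a1, Myc and the insulin receptor genes stand in several lists.

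The depth of the libraries, estimated from the smallest steps between low values and so only approximate, was between about 26400000 and 34700000 reads. At that depth the least covered of these genes, Hmga2 in the scramble line with vehicle, had about 392 reads, a counting error of about 5.05%. This is the error of 1 library, and a ratio of libraries carries the error of both. The smallest difference given for Hmga2, 0.89 times the scramble level in the Carm1 shRNA line with vehicle, is therefore close to counting error. The other differences given for Hmga2 are larger. Counting error does not include the spread between cultures, which 1 library per line and treatment cannot show.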

How the data were processed

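The authors deposited FPKM values per gene, made with TopHat2 and Cufflinks on mm9, per the submitters' processing notes; their versions, and whether libraries were scaled to each other, are not stated in the sources used here. Other header notes of the deposited workbook call the values RPKM. The library kit was TruSeq, per the labels' protocols. Of 20793 rows, 2 with a failed estimate were left out and the row of highest mean was kept per symbol, leaving 20460 genes.

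The 8 genes and all gene lists were chosen with earlier results of these data known. Genes averaging 1 FPKM or more were tested with limma 3.58.1 in R 4.3.3 on log2(FPKM + 1), with line and treatment as terms, which leaves 2 residual degrees of freedom (limma then moderates variances across genes), with Benjamini-Hochberg adjustment over all tested genes. Fold changes on this scale understate changes of low genes. The script was tested on simulated data. Named from each list were up to 3 genes with the largest and 3 with the smallest change among those called, besides other listed genes, and the 3 most alike genes per member. Sequences came from RefSeq (GRCm38.p6) and GENCODE (GRCm38). The protein comparison that had been planned was left out. Some listed or ranked genes are not reported here.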

Additional observations from a re-analysis of the deposited data

How the results depend on the processing

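Each of the 8 genes kept the sign of its RA response under all 10 alternatives, but most of these could not change it. The filters on level, the line block and the trended prior leave the estimate itself unchanged. All 8 genes had the same sign in every line, which fixes it for the pseudocount of 0.1 FPKM and for leaving out 1 line. Only median-of-ratios scaling and quantile normalization could have reversed a sign. The numbers of genes over the whole table moved more. With median-of-ratios scaling 3631 genes were lower with RA, and with quantile normalization 3827 were lower and 3031 higher, beside 2325 lower and 4816 higher as reported; the median of all genes was 0.0015 and -0.05 under these scalings. Leaving out 1 line gave between 1390 and 2295 lower genes and between 3405 and 4693 higher genes. The contrast of the Carm1 shRNA with the scramble line called 2 genes as reported, 0 without the filter on low values, 9 with a mean of at least 5 FPKM, 22 with a trended prior and 13 without the wild-type line. Genes that set the Carm1 shRNA line apart from both controls by at least 2-fold numbered 19 with vehicle and 35 with RA, then 46 and 72 with a pseudocount of 0.1 FPKM, 106 and 210 at 1.5-fold, and 23 with RA at a mean of at least 5 FPKM. The cause of these shifts was not tested. The RA fit pairs the vehicle and RA library of each line through the line block; without that block Hmga2, Igf2bp1 and Igf2bp3 no longer passed, and the calls of the other 5 genes stayed as reported.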
